A study of Homo sapiens with 20 samples.

Results

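The genes described here are 10 enzymes that activate fatty acids and break them down in mitochondria: ACSL1, ACSL3, ACSL4, ACSL5, CPT1A, CPT2, ACADVL, ACADM, HADHA and HADHB. They were chosen by gene symbol for their place in the pathway, with earlier results of these data known. The deposited count table holds 60271 genes, and each symbol matched 1 gene. All 10 passed the filter on low counts, which left 16522 genes to be tested. RNA was measured in MDA-MB-468, an established epithelial line of triple negative breast cancer. The study's general protocol was 24 h without serum before treatment. The cells received 50 ng/mL epidermal growth factor (EGF), which induces epithelial-mesenchymal transition (EMT), for 12, 24, 48 or 72 h. Control cells were also starved and left without EGF, and all groups were seeded and harvested together. As the EGF times differ, the time without serum before EGF cannot then have been 24 h in every group. Its length per group is not given in the sources used here. Each of the 5 groups held 4 biological replicates, 20 libraries in all, and the sources do not say whether the replicates were grown on separate days. Every EGF time is compared with the same 4 control libraries. All cells came from 1 cell line, so the p-values measure the spread between cultures of that line.

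A fatty acid has to be joined to coenzyme A before a cell can use it. Long-chain acyl-CoA synthetases (the ACSL enzymes) make this bond, each with its own preferred chains and membrane, and the acyl-CoA then goes into phospholipids, triglycerides or oxidation. To enter mitochondria, a long acyl chain is moved onto carnitine by CPT1 in the outer membrane and back onto coenzyme A by CPT2 in the inner membrane, the step that limits the rate being CPT1. Inside, acyl-CoA dehydrogenases such as ACADVL and ACADM start each round of beta-oxidation, and the trifunctional protein, built of HADHA and HADHB, carries out the later reactions for long chains.

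The libraries held 15611961 to 25856953 counts. Levels are given as CPM, the count scaled to the size of its library after TMM normalization, with the SD over 4 libraries. Members of the group of 10 were called higher or lower where the adjusted p of edgeR's quasi-likelihood test, over all genes tested, was under 0.05. All 8 epithelial markers of a fixed list passed the filter. Against the control, 7 were higher and 1 lower at 12 h (32.9% and 36.5% of all genes tested). At 72 h, 4 were higher and 3 lower (30.6% and 31.0%). Summed, the 8 markers were at 5080 to 5664 CPM in the control libraries. The sum was 18988 to 19799 CPM at 12 h and 8232 to 9009 CPM at 72 h. CDH1, which encodes E-cadherin, was at 127 CPM ± 16.5 in control cells. It was at 181 CPM ± 4.9 after 12 h of EGF and 90.6 CPM ± 5.5 after 72 h. KRT18, a keratin gene, went from 788 CPM ± 84 to 5136 CPM ± 150 at 12 h and 1441 CPM ± 132 at 72 h. Among markers of other cell types, 2 of 5 leukocyte, 2 of 4 endothelial, 2 of 6 fibroblast and 1 of 4 adipocyte genes passed. Of the leukocyte genes, CD68 was at 1.15 CPM ± 0.33 without EGF and 26.7 CPM ± 2.1 in the 72 h libraries, and CD14 at 2.98 CPM ± 0.39 and 4.36 CPM ± 0.27, while PTPRC, the defining gene, never exceeded 8 counts. VIM, which encodes vimentin, a mesenchymal filament, was at 20.3 CPM ± 1.5 without EGF, and 24 h of EGF brought it to 383 CPM ± 9.8. The share of counts from mitochondrial genes was 9.03% to 12.6% in the control libraries, 7.69% to 11.3% at 12 h, 11.1% to 13.8% at 24 h, 9.83% to 16.9% at 48 h and 12.3% to 16.4% at 72 h. With those genes left out before scaling, the number of the 10 genes called was the same in 6 of 7 comparisons.

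The number of the 10 genes that differed from the control was 8 at both 12 and 72 h, 6 at 24 h and 4 at 48 h. Over all 16522 genes tested the number was 11465 at 12 h and 9717 at 24 h. It was also lowest at 48 h, with 7562, and 10177 at 72 h, so the members' totals were near the background. At 12 h, 2 of 10 genes were higher than in the control (ACSL4 and ACADVL), against 32.9% of all genes tested, and 6 were lower (ACSL1, ACSL3, CPT1A, CPT2, ACADM and HADHB), against 36.5%. The medians of the log2 fold changes were -0.33 over the 10 genes and -0.05 over all genes. At 24 h, 1 gene was higher (ACSL4, background 29.2%) and 5 were lower (ACSL3, CPT1A, CPT2, ACADM and HADHB, background 29.6%), with medians of -0.23 and -0.01. The smallest number was found at 48 h, with 2 higher (ACSL1 and ACSL4, background 24.0%) and 2 lower (CPT1A and ACADM, background 21.8%), and medians of 0.04 and 0.01. At 72 h, 3 were higher (ACSL4, ACSL5 and ACADVL, background 30.6%) and 5 lower (ACSL3, CPT1A, CPT2, ACADM and HADHB, background 31.0%), with medians of -0.18 and -0.01. ACSL4 was higher and CPT1A and ACADM were lower at all 4 times. In bulk RNA, fewer cells that express a gene cannot be told apart from less RNA per cell.

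The number called at 48 h rose from 4 to 6 when control replicate 3 and EGF 48 h replicates 3 and 4 were left out together, an alternative chosen after the data were seen, and stayed at 8, 6 and 8 at the other times. Scaling by library size only moved the median of all genes by -0.28 at 12 h and -0.14 at 24 h, and the share of all calls that were higher from 47.4% to 30.2% and from 49.6% to 36.3%. Replacing TMM by the factors that link each deposited count to its normalized value, which differ from gene to gene and are called factors per gene here, moved the median at 12 h by 0.12. Of the directions called against the control, none was reversed by these scalings, but ACADVL at 12 h then had a log2 fold change of 0.10 (adjusted p = 0.508) with library size only.

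**Figure D1:**
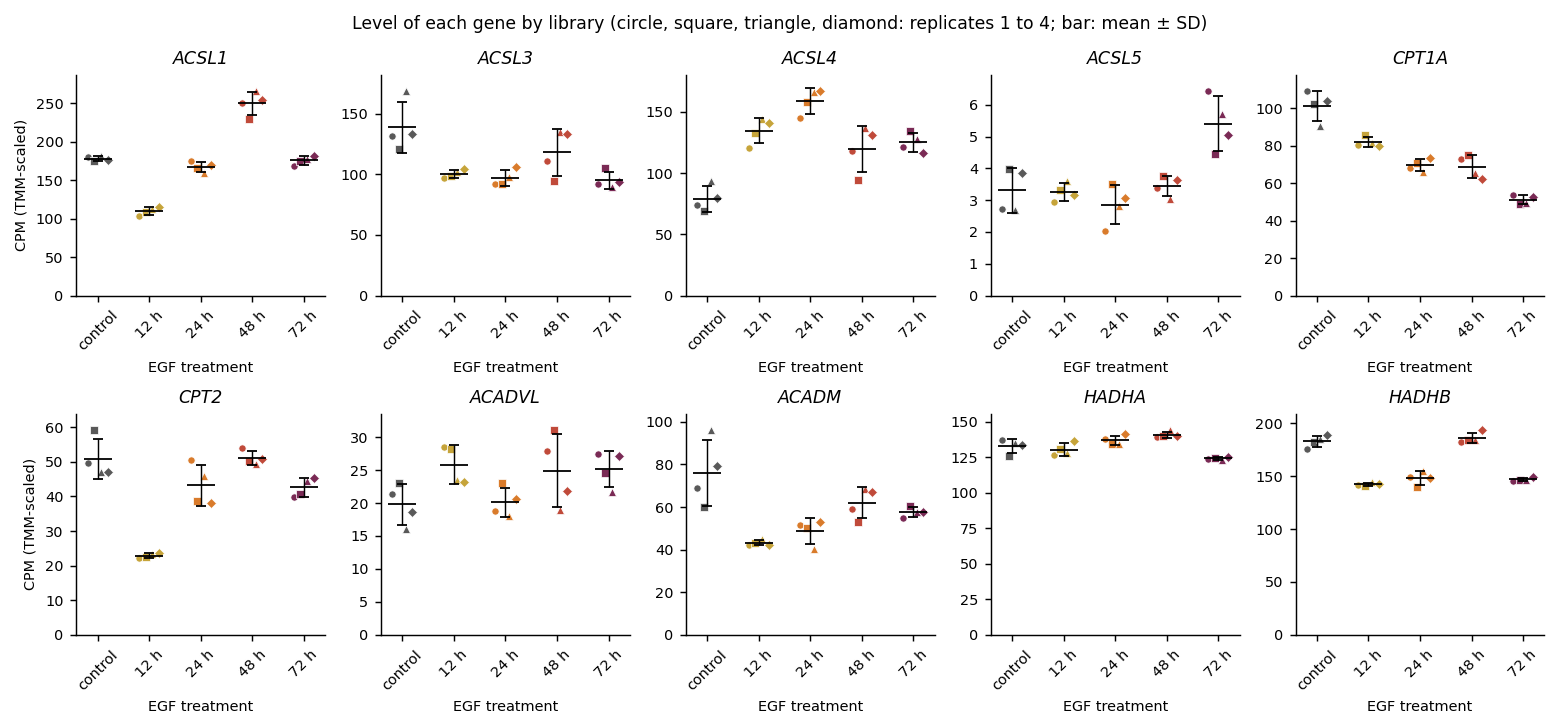
Level of each of the 10 genes in CPM (vertical axes from 0, each with its own scale) in the 20 libraries, by group. Points are libraries, with a marker shape for the replicate number, and bars are the mean ± SD of 4. ACSL4 lies above all control libraries at each time, CPT1A falls from 101 CPM to 51.1 CPM at 72 h, and CPT2 is lowest at 12 h.

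Divided by the length of their annotated exons, the genes spanned a wide range of levels. In the control, HADHB was highest, with 42.7 CPM per kb ± 1.28, followed by HADHA (30.3 ± 1.12), ACSL1 (28.3 ± 0.50), ACSL3 (19.2 ± 2.89), ACADM (15.9 ± 3.23), CPT1A (15.4 ± 1.22) and ACSL4 (12.3 ± 1.65). CPT2 (4.86 ± 0.54), ACADVL (4.07 ± 0.63) and ACSL5 (0.78 ± 0.17) were lowest. The control libraries of HADHA and ACSL1 overlapped on this scale, as did those of neighbours from ACSL3 to ACSL4 and those of CPT2 and ACADVL. At 12 and 24 h ACSL4 had moved up to ranks 3 and 4, and at 48 h ACSL1 (39.7 CPM per kb ± 2.43) was second to HADHB (43.5 ± 1.16). These lengths, from GENCODE 29, count every annotated exon base, used in these cells or not.

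ACSL1 (ENSG00000151726, chr4:184755595-184826818, minus strand, 27 exon blocks after merging all transcripts) is a broadly active synthetase, known in liver, fat and muscle for supplying acyl-CoA to triglyceride synthesis and oxidation. It was measured at 179, 174, 181 and 176 CPM in the control libraries and at 103, 109, 113 and 115 CPM after 12 h. At 24 h it was at 175, 166, 159 and 169 CPM, at 48 h at 250, 229, 266 and 254 CPM, and at 72 h at 168, 175, 177 and 181 CPM. All 4 libraries at 12 h were below all controls and all 4 at 48 h were above them, while the libraries at 72 h overlapped the control range. The fall at 12 h was 1.62-fold (log2 fold change -0.69 ± 0.06 SE, adjusted p = 1.75e-10) and the rise at 48 h was 1.40-fold (0.49 ± 0.06, adjusted p = 1.87e-07). The values at 24 h (-0.09 ± 0.06, adjusted p = 0.186) and at 72 h (-0.02 ± 0.06, adjusted p = 0.800) did not pass the test. With library size only the value at 24 h was -0.23 and passed (adjusted p = 0.00333), with factors per gene it was 0.09, and the sign at 72 h also depended on the scaling. Between neighbouring times, ACSL1 rose 1.52-fold from 12 to 24 h and 1.49-fold from 24 to 48 h, and fell 1.42-fold from 48 to 72 h, with adjusted p of 9.67e-09, 1.84e-08 and 2.43e-07.

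ACSL3 (ENSG00000123983, chr2:222860934-222944639, plus strand) and ACSL4 (ENSG00000068366, chrX:109624244-109733403, minus strand) are close relatives. ACSL3 sits on the endoplasmic reticulum and lipid droplets, where it is needed for droplet growth, and ACSL4 prefers arachidonic acid and other polyunsaturated chains, which makes it known for its part in ferroptosis. Since the pair moved in opposite directions, the bases just upstream of each are shown. They come from the RefSeq promoter window (250 bases before to 50 after the annotated start). Each is the longest unbroken part of it that lies before the start and outside all exons in GENCODE 29. Capitals mark the GC box, GGGCGG or its complement CCGCCC.
ACSL3 (chr2:222860786-222860933, GRCh38.p14, plus strand): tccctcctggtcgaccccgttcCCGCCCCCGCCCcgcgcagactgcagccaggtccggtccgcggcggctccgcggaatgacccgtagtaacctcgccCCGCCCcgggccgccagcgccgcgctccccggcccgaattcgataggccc
ACSL4 (chrX:109733404-109733507, GRCh38.p14, minus strand): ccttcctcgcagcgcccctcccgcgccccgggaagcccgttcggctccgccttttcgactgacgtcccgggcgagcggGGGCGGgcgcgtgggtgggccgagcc
Both stretches are rich in G and C, 77.0% over 148 bases for ACSL3 and 78.8% over 104 bases for ACSL4, with 3 GC boxes and 1 GC box. The full promoter windows, exon bases included, did not differ in this, with 3 GC boxes for each gene.

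ACSL4 was the member with the steadiest rise. Its control libraries were at 73.7, 69.1, 93.4 and 79.3 CPM, those at 12 h at 121, 133, 144 and 141 CPM, and those at 24 h at 145, 158, 166 and 167 CPM. At 48 h it was measured at 118, 94.3, 136 and 131 CPM and at 72 h at 121, 134, 128 and 117 CPM. At each time all 4 EGF libraries lay above all 4 controls, although EGF 48 h replicate 2, at 94.3 CPM, was close to control replicate 3, at 93.4 CPM. At 12, 24, 48 and 72 h the level was 1.71, 2.02, 1.52 and 1.59 times that of the control, with adjusted p from 7.08e-09 to 2.67e-05 and standard errors of 0.10 on the log2 scale. ACSL4 fell 1.32-fold from 24 to 48 h (log2 fold change -0.40, adjusted p = 0.00160). The rise from 12 to 24 h was small (0.24 ± 0.10, adjusted p = 0.0442). It lost its call in turn without EGF 12 h replicate 1 (0.19, adjusted p = 0.147), 2 (0.23, 0.0863) or 4 (0.26, 0.0540), and without EGF 24 h replicate 2 (0.24, 0.0733), 3 (0.22, 0.102) or 4 (0.21, 0.108). It also missed the threshold with DESeq2's size factors (0.22, adjusted p = 0.0692), in DESeq2 itself (0.22, 0.0686), without mitochondrial genes (0.23, 0.0518), with factors per gene (0.35, 0.0539) and with no filter (0.20, 0.110).

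ACSL3 went the other way. It was measured at 132, 121, 169 and 134 CPM in the control, at 97.3, 98.6, 102 and 104 CPM at 12 h, and at 92.3, 91.8, 97.6 and 106 CPM at 24 h. At 48 h the values were 111, 94.2, 135 and 133 CPM and at 72 h they were 92.0, 105, 89.4 and 93.7 CPM. All libraries at 12, 24 and 72 h were below all controls, whereas those at 48 h overlapped them, and control replicate 3 stood high. The level fell 1.38-fold at 12 h (log2 fold change -0.46 ± 0.10, adjusted p = 0.000298), 1.43-fold at 24 h (-0.52 ± 0.10, adjusted p = 0.000134) and 1.46-fold at 72 h (-0.55 ± 0.10, adjusted p = 6.38e-05). With factors per gene, the value at 12 h was -0.29 and missed the threshold (adjusted p = 0.0519). At 48 h the difference was -0.23 ± 0.10 (adjusted p = 0.0681), and it passed without EGF 48 h replicate 3 (-0.30, adjusted p = 0.0262), EGF 48 h replicate 4 (-0.29, 0.0324) or control replicate 2 (-0.29, 0.0218).

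The step of ACSL3 up to 48 h and down again was less secure. From 24 to 48 h it was higher by 0.29 ± 0.10 (adjusted p = 0.0221), a call that was lost without EGF 24 h replicate 1 (0.26, adjusted p = 0.0602) or 2 (0.26, 0.0661), or EGF 48 h replicate 3 (0.22, 0.0925) or 4 (0.22, 0.0920). From 48 to 72 h it was lower by 0.32 ± 0.10 on the log2 scale (log2 fold change -0.32, adjusted p = 0.0179). That call was lost without EGF 48 h replicate 3 (-0.25, adjusted p = 0.0708) or 4 (-0.25, 0.0743), or EGF 72 h replicate 1 (-0.29, 0.0544) or 3 (-0.29, 0.0562).

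ACSL5 (ENSG00000197142, chr10:112374018-112428380, plus strand) is a synthetase of mitochondria and endoplasmic reticulum that is best known from intestine. It was the scarcest member, with 41 to 167 counts per library. The control libraries were at 2.71, 3.99, 2.69 and 3.84 CPM and those at 72 h at 6.44, 4.44, 5.70 and 5.05 CPM, all 4 above all controls. The libraries at 12, 24 and 48 h lay between 2.03 and 3.77 CPM, within or just below the control range. The rise at 72 h was 1.64-fold (log2 fold change 0.71 ± 0.16, adjusted p = 0.000620), and 1.58-fold against 48 h (0.66 ± 0.16, adjusted p = 0.00300). With factors per gene the step from 48 to 72 h was 0.89 (adjusted p = 0.0524). At 12, 24 and 48 h the log2 fold changes of ACSL5 were -0.03, -0.22 and 0.06, with adjusted p of 0.888, 0.290 and 0.810.

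CPT1A (ENSG00000110090, chr11:68754620-68844410, minus strand) encodes the liver-type form of CPT1, the enzyme that malonyl-CoA inhibits. It was lower at every time and lowest at the last. The control libraries were at 109, 102, 90.3 and 104 CPM, and those at 12 h at 80.2, 85.9, 81.4 and 80.1 CPM. At 24 h the values were 68.0, 70.7, 66.0 and 73.4 CPM, at 48 h 72.8, 75.0, 65.5 and 62.1 CPM, and at 72 h 53.9, 48.8, 49.4 and 52.4 CPM. No EGF library at any time reached the lowest control. The level fell 1.24-fold at 12 h (log2 fold change -0.31 ± 0.07, adjusted p = 0.000417), 1.46-fold at 24 h (-0.54 ± 0.07, adjusted p = 4.79e-07), 1.47-fold at 48 h (-0.56 ± 0.07, adjusted p = 5.90e-07) and 1.98-fold at 72 h (-0.99 ± 0.07, adjusted p = 2.02e-11). Between times, it fell by 0.24 from 12 to 24 h (adjusted p = 0.00713) and by 0.43 from 48 to 72 h on the log2 scale (adjusted p = 4.87e-05), while the step from 24 to 48 h was -0.01 ± 0.07 (adjusted p = 0.881). The fall at 12 h depended on the normalization, since with factors per gene it was -0.02 (adjusted p = 0.860). With library size only, the step from 12 to 24 h was -0.09 (adjusted p = 0.280).

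The sequence before the CPT1A start, shown as the member with the largest fall at 72 h, differed in base composition from those of ACSL3 and ACSL4. It holds 32.5% G and C over 117 bases and no GC box.
CPT1A (chr11:68844411-68844527, GRCh38.p14, minus strand): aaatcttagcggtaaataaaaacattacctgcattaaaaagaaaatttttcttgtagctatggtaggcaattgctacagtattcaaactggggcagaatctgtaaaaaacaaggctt
A GC box was found on either strand in 15786 of all 35116 RefSeq promoter windows of 300 bases, and in at least 1 window of 8 of the 10 genes, the others being ACSL5 and CPT1A. Also on either strand, TGANTCA, the AP-1 motif, was in 7.71% of all windows. It was in 2 of the 16 windows of the 10 genes, 1 of ACSL1 and 1 of ACADVL. AAGGTCA, a motif of orphan nuclear receptors, was in 3.92% of all windows and CACGTG, the E-box, in 7.26%, and neither was in a window of the 10 genes. ACSL1 had 5 such windows, ACSL5 and ACADVL 2 each, and the other genes 1 each.

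CPT2 (ENSG00000157184, chr1:53196429-53214197, plus strand) had the largest single change among the 10 genes, and it was brief. The control libraries were at 49.7, 59.2, 47.2 and 47.2 CPM, and at 12 h they were at 22.2, 22.4, 23.4 and 23.5 CPM, far below. By 24 h the values were 50.4, 38.6, 45.8 and 38.2 CPM, and by 48 h they were 54.1, 50.1, 49.3 and 50.7 CPM, inside the control range. At 72 h they were 39.9, 40.7, 44.3 and 45.5 CPM, all below the controls. The fall at 12 h was 2.22-fold (log2 fold change -1.15 ± 0.09, adjusted p = 5.33e-11), and the rise from 12 to 24 h was 1.89-fold (0.92 ± 0.09, adjusted p = 1.41e-08). At 48 h the difference from the control was 0.01 ± 0.09 (adjusted p = 0.959).

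The smaller differences of CPT2 rested on single libraries. At 24 h it was -0.23 ± 0.09 (adjusted p = 0.0238), and the call was lost without EGF 24 h replicate 2 (-0.18, adjusted p = 0.101) or 4 (-0.17, 0.106) or control replicate 2 (-0.15, 0.122). It also missed the threshold with factors per gene (-0.24, adjusted p = 0.0591) and in a fit of the 8 libraries alone (-0.23, 0.0852). At 72 h it was -0.26 ± 0.09 (adjusted p = 0.0129), and the call was lost without EGF 72 h replicate 1 (-0.21, adjusted p = 0.0615) or control replicate 2 (-0.18, 0.0681). The step from 24 to 48 h (0.24, adjusted p = 0.0240) was lost without EGF 24 h replicate 2 (0.19, adjusted p = 0.0996) or 4 (0.18, 0.108) or EGF 48 h replicate 1 (0.21, 0.0720). The step from 48 to 72 h (-0.26, adjusted p = 0.0201) was lost without EGF 48 h replicate 1 (-0.23, adjusted p = 0.0605) or EGF 72 h replicate 1 (-0.22, 0.0872) or 2 (-0.24, 0.0585). Of the exon bases of CPT2, 11.0% are shared with the antisense gene AL606760.2, and since the handling of strand in the counting is not given in the sources used here, reads of the pair cannot be told apart.

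The acyl-CoA dehydrogenases for very long and for medium chains moved apart. ACADM (ENSG00000117054, chr1:75724347-75787575, plus strand), the medium-chain enzyme whose loss causes a common inborn error of fatty acid oxidation, was at 68.9, 60.2, 96.1 and 79.2 CPM in the control. At 12 h it was at 42.3, 43.1, 44.8 and 42.4 CPM and at 24 h at 51.8, 50.0, 40.1 and 53.1 CPM, all below the controls. At 48 h the values of 59.1, 53.2, 68.6 and 67.3 CPM overlapped the controls, and those at 72 h, at 54.9, 60.7, 57.7 and 57.7 CPM, reached only the lowest of them. The level fell 1.76-fold at 12 h (log2 fold change -0.82 ± 0.11, adjusted p = 6.35e-07), 1.56-fold at 24 h (-0.64 ± 0.11, adjusted p = 2.78e-05) and 1.32-fold at 72 h (-0.40 ± 0.11, adjusted p = 0.00319). With factors per gene, the value at 72 h was -0.35 (adjusted p = 0.0569).

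At 48 h ACADM was lower by -0.29 ± 0.11 on the log2 scale (adjusted p = 0.0317). This call was lost without control replicate 3 (-0.16, adjusted p = 0.191) or 4 (-0.27, 0.0735), or EGF 48 h replicate 1 (-0.27, 0.0798) or 2 (-0.22, 0.113). It also missed the threshold with factors per gene (-0.37, adjusted p = 0.0625), with at least 10 counts in every library (-0.25, 0.0578) and in a fit of the 8 libraries alone (-0.30, 0.122). ACADM was higher at 48 h than at 24 h by 0.35 ± 0.11 (adjusted p = 0.0119). Without EGF 24 h replicate 3, its lowest library at that time, the step was 0.26 (adjusted p = 0.0631). With factors per gene it was 0.21 (adjusted p = 0.285).

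ACADVL (ENSG00000072778, chr17:7217125-7225273, plus strand), the very long-chain enzyme of the inner membrane, was at 21.3, 23.1, 16.1 and 18.7 CPM in the control. At 12 h it was at 28.5, 28.2, 23.5 and 23.2 CPM, at 24 h at 18.8, 23.0, 18.0 and 20.6 CPM, at 48 h at 27.9, 31.1, 18.9 and 21.9 CPM, and at 72 h at 27.4, 24.5, 21.7 and 27.2 CPM. The libraries at 12 h were all above the controls by a narrow margin, and 3 of 4 were at 72 h. The rise was 1.31-fold at 12 h (log2 fold change 0.38 ± 0.14, adjusted p = 0.0148) and 1.27-fold at 72 h (0.35 ± 0.14, adjusted p = 0.0292). The call at 12 h was lost without control replicate 3 (0.30, adjusted p = 0.0599). That at 72 h was lost without control replicate 3 (0.26, adjusted p = 0.109) or 4 (0.32, 0.0704), or EGF 72 h replicate 1 (0.32, 0.0796) or 4 (0.32, 0.0735), and with library size only (0.27, 0.0774).

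At 48 h ACADVL differed from the control by 0.33 ± 0.14 (adjusted p = 0.0510), and it passed without EGF 48 h replicate 3 (0.44, adjusted p = 0.00740) or 4 (0.39, 0.0351) or control replicate 2 (0.41, 0.0205). It also passed with DESeq2's size factors (adjusted p = 0.0470), with library size only (0.0395), with at least 10 counts in every library (0.0327) and in DESeq2 itself (0.0426). From 12 to 24 h ACADVL was lower by -0.36 ± 0.14 (adjusted p = 0.0297). This was lost without EGF 12 h replicate 1 (-0.31, adjusted p = 0.0884) or 2 (-0.32, 0.0809), or EGF 24 h replicate 1 (-0.33, 0.0774) or 3 (-0.31, 0.0855). It also missed with library size only (-0.22, adjusted p = 0.167), factors per gene (-0.46, 0.0693) and at least 10 counts in every library (-0.32, 0.0527). From 24 to 48 h its log2 fold change of 0.30 (adjusted p = 0.0678) passed without EGF 24 h replicate 2 (0.37, 0.0445), or EGF 48 h replicate 3 (0.42, 0.0105) or 4 (0.36, 0.0472).

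HADHA and HADHB encode the subunits of the trifunctional protein, HADHA with the hydratase and the 3-hydroxyacyl-CoA dehydrogenase and HADHB with the thiolase. They are transcribed away from each other on chromosome 2, HADHA at chr2:26190635-26244726 on the minus strand (ENSG00000084754) and HADHB at chr2:26243170-26290468 on the plus strand (ENSG00000138029). The annotated genes overlap from 26243170 to 26244726. Their RefSeq starts, at positions 26244632 and 26244939, leave 306 bases between them, and the promoter windows share 194 bases with 68.6% G and C and 1 GC box. Of these, the longest unbroken run outside the annotated exons of GENCODE 29 is the 21 bases below, before the start of HADHA and inside the span of HADHB.
Between the RefSeq starts of HADHA and HADHB (chr2:26244727-26244747, GRCh38.p14, plus strand): ccggccccttagccctgcccc

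HADHA was the member that moved least. It was at 137, 126, 135 and 134 CPM in the control, at 126, 131, 128 and 136 CPM at 12 h, and at 138, 134, 134 and 141 CPM at 24 h. At 48 h the values were 139, 140, 144 and 140 CPM, above all controls, and at 72 h 124, 124, 123 and 125 CPM, below all controls. The log2 fold changes against the control were -0.03, 0.04, 0.08 and -0.10, each with an SE of 0.05, and none passed the test (adjusted p = 0.641, 0.484, 0.191 and 0.0924). The value at 72 h passed without control replicate 2 (-0.13, adjusted p = 0.0436) and with library size only (-0.18, adjusted p = 0.00924), and that at 12 h did with library size only (-0.31, adjusted p = 2.79e-05). At 48 h it passed with at least 10 counts in every library (0.12, adjusted p = 0.0394). From 48 to 72 h HADHA was 1.13-fold lower (-0.18 ± 0.05, adjusted p = 0.00693), and with no filter the adjusted p was 0.0862. GENCODE 29 lists 2 pseudogenes of HADHA by name, HADHAP1 and HADHAP2, and how reads shared with such copies were counted is not given in the sources used here.

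HADHB fell at 12, 24 and 72 h and was back at the control level at 48 h. It was at 176, 182, 185 and 189 CPM in the control and at 142, 141, 144 and 143 CPM at 12 h. At 24 h it was at 149, 140, 155 and 148 CPM, at 48 h at 183, 185, 184 and 193 CPM, and at 72 h at 145, 146, 147 and 149 CPM. The libraries at 12, 24 and 72 h were all below the lowest control, and those at 48 h overlapped the controls. The fall was 1.28-fold at 12 h (log2 fold change -0.36 ± 0.05, adjusted p = 9.68e-07), 1.23-fold at 24 h (-0.30 ± 0.05, adjusted p = 1.65e-05) and 1.24-fold at 72 h (-0.32 ± 0.05, adjusted p = 8.91e-06). At 48 h the difference was 0.03 ± 0.05 (adjusted p = 0.714). The steps from 24 to 48 h (1.26-fold higher) and from 48 to 72 h (1.27-fold lower) had adjusted p of 1.03e-05 and 1.15e-05.

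**Figure D2:**
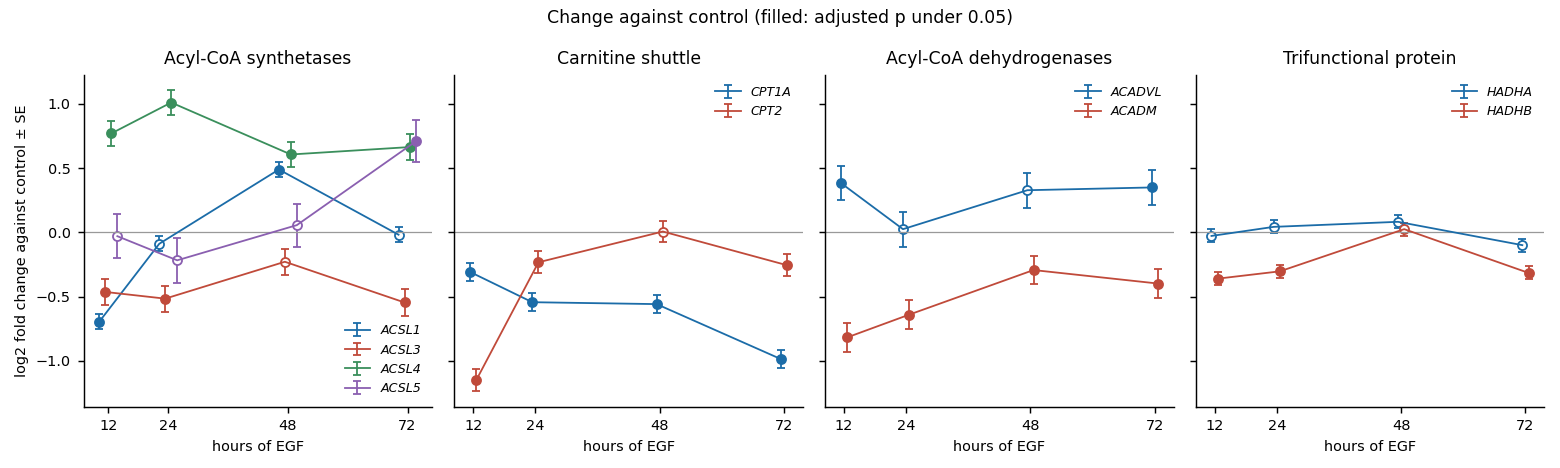
Log2 fold change against control (vertical axis, ± SE from the edgeR fit) of the 10 genes over hours of EGF, in a panel for each step of the pathway. Filled points have an adjusted p under 0.05. ACSL4 lies above 0 and ACSL3 below it, CPT1A declines to -0.99 at 72 h while CPT2 starts at -1.15 and returns to 0.01 at 48 h, and HADHA stays near 0.

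Set against the time before, 3 of the 10 genes were higher at 24 h than at 12 h (ACSL1, ACSL4 and CPT2), against 27.9% of all genes, and 2 were lower (CPT1A and ACADVL), against 25.9%. At 48 h, 5 were higher than at 24 h (ACSL1, ACSL3, CPT2, ACADM and HADHB, background 25.9%) and ACSL4 was lower (background 24.3%). At 72 h, only ACSL5 was higher than at 48 h (background 17.9%), and 6 genes were lower (ACSL1, ACSL3, CPT1A, CPT2, HADHA and HADHB, background 17.9%). The summed level of the 10 genes was 963 CPM ± 40.2 in the control, 795 CPM ± 21.1 at 12 h, 893 CPM ± 19.4 at 24 h, 1025 CPM ± 51.5 at 48 h and 849 CPM ± 13.8 at 72 h. The 48 h libraries thus held the highest sum and the 12 h libraries the lowest, with no overlap between those groups. From 12 to 24 h the number called fell from 5 to 3 without EGF 12 h replicate 1 or 2 or EGF 24 h replicate 3, and with factors per gene. Library size only changed the share of all calls that were higher from 51.9% to 68.6% at 24 h, from 51.5% to 71.8% at 48 h and from 50.0% to 33.8% at 72 h, and factors per gene changed it to 39.2% at 24 h.

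To compare related enzymes without any scaling between libraries, the ratio of counts of 2 genes was taken within each library, and its log2 was compared with the control by a two-sided exact permutation test over libraries. With 4 against 4 libraries the smallest p is 0.0286, which came to 0.0440 after Benjamini-Hochberg adjustment over the 20 ratio tests. This adjusted value depends on how many of the 20 tests reached the smallest p, and all of them share the same 4 control libraries. The ratios are of counts and are not corrected for gene length. ACSL3 had 1.78, 1.75, 1.81 and 1.69 counts per count of ACSL4 in the control libraries and 0.805, 0.743, 0.709 and 0.743 at 12 h. At 24 h the ratio was 0.638, 0.581, 0.588 and 0.637. The 48 h libraries had ratios of 0.939, 0.999, 0.987 and 1.02 and the 72 h libraries of 0.759, 0.783, 0.699 and 0.803. The spread within each group was far smaller than the distance from the controls, and the ratio was lower in 4 of 4 libraries at each time. At 12, 24, 48 and 72 h it fell 2.35-fold, 2.88-fold, 1.78-fold and 2.31-fold, each with the smallest p that the test allows (adjusted p = 0.0440).

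The ratio of CPT1A to CPT2 changed direction over time. Its log2 was 1.14, 0.79, 0.93 and 1.14 in the control, 1.85, 1.93, 1.80 and 1.77 at 12 h, and 0.44, 0.26, 0.16 and 0.21 at 72 h. All libraries at 12 h were above the controls and all at 72 h below them. The log2 ratio differed from the control by 0.84 at 12 h, -0.57 at 48 h and -0.74 at 72 h (exact adjusted p = 0.0440 each) and by -0.31 at 24 h (exact adjusted p = 0.168). Taken from the deposited normalized values, the differences at 48 and 72 h were -0.24 and -0.35.

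HADHA gained on HADHB at 12, 24 and 72 h. The ratio of HADHA to HADHB was 0.781, 0.693, 0.728 and 0.708 in the control and 0.891, 0.926, 0.888 and 0.956 at 12 h. At 48 h it was 0.762, 0.759, 0.783 and 0.722, within or just above the control range. The log2 ratio was higher than in the control by 0.33 at 12 h, 0.35 at 24 h and 0.22 at 72 h (exact adjusted p = 0.0440 each), and by 0.06 at 48 h (exact adjusted p = 0.301). The ratio of ACADVL to ACADM was higher by 1.19 on the log2 scale at 12 h (exact adjusted p = 0.0440). At 24, 48 and 72 h this ratio differed by 0.66, 0.60 and 0.73 (exact adjusted p = 0.0762, 0.190 and 0.0762), with control values from 0.168 to 0.384. The ratio of ACSL1 to ACSL5 was lower by -0.69 at 12 h and -0.73 at 72 h (exact adjusted p = 0.0440 each). At 24 and 48 h this ratio differed by 0.12 and 0.41 (exact adjusted p = 0.629 and 0.143). From the normalized values, the difference at 12 h was -0.30.

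**Figure D3:**
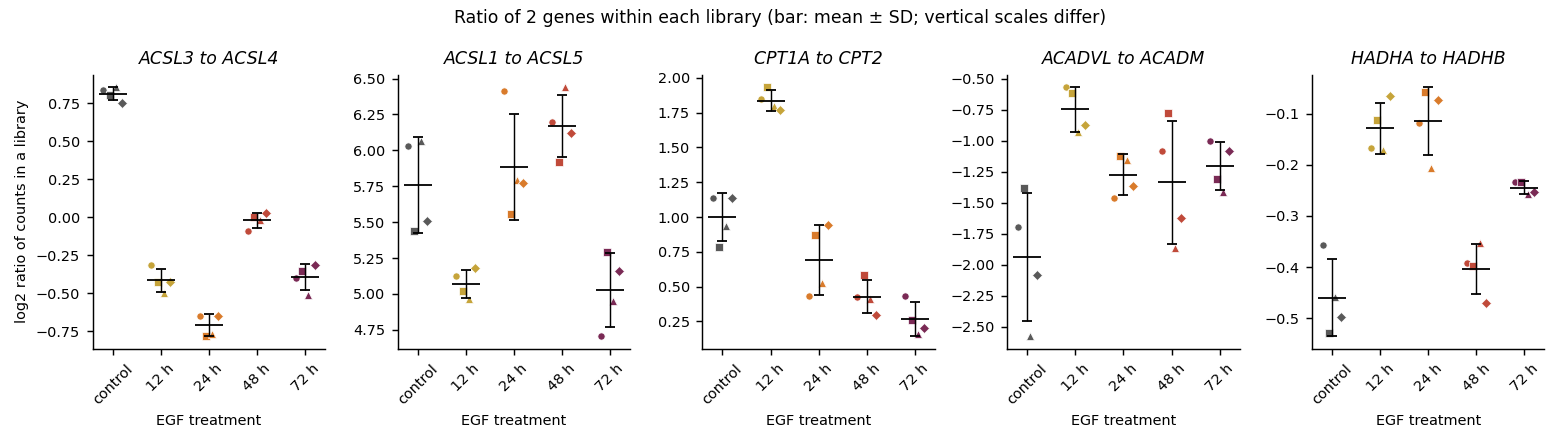
Log2 ratio of the counts of 2 genes within each library (vertical axis, a scale of its own in each panel), by group. Points are libraries with a marker shape for the replicate number, and bars are the mean ± SD of 4. The ACSL3 to ACSL4 ratio is below all controls at each time, and the CPT1A to CPT2 ratio is above them at 12 h and below them at 48 and 72 h.

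Some libraries deviated from their group in several members at once. Control replicate 3 had the highest ACSL3 (169 CPM), ACSL4 (93.4 CPM) and ACADM (96.1 CPM) of its group and the lowest ACADVL (16.1 CPM) and CPT1A (90.3 CPM). EGF 48 h replicates 3 and 4 had the highest ACSL3, ACSL4 and ACADM of theirs, and the lowest ACADVL and CPT1A. A reason for this was not tested. These 3 libraries were singled out, after the data were seen, by values of the same genes. Fits without them are therefore no independent test of these genes and only show how much the calls rest on these libraries. With the 3 left out together, the values of ACSL3 and ACADVL at 48 h fell under the threshold (-0.32, adjusted p = 0.00367, and 0.49, adjusted p = 0.00258). ACSL3 from 24 to 48 h (0.09, adjusted p = 0.388) and from 48 to 72 h (-0.11, adjusted p = 0.319) and ACADM from 24 to 48 h (0.21, adjusted p = 0.0839) lost their calls, and ACSL4 from 48 to 72 h gained one (0.24, adjusted p = 0.0404).

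The rest of the pathway was read from lists of related genes, whose counts stand beside the share of all genes called higher and lower, 32.9% and 36.5% at 12 h, 29.2% and 29.6% at 24 h, 24.0% and 21.8% at 48 h, and 30.6% and 31.0% at 72 h. The median log2 fold change of all genes was -0.05, -0.01, 0.01 and -0.01 at these times. Of 17 other genes of mitochondrial beta-oxidation, 16 were tested, and none was higher and 13 were lower at 12 h. The counts were 1 higher and 14 lower at 24 h, 4 and 7 at 48 h, and 2 and 11 at 72 h. The median log2 fold change of the list was -0.76, -0.54, 0.03 and -0.39 at 12, 24, 48 and 72 h. ACADSB, the dehydrogenase for short branched chains, fell from 10.3 CPM ± 0.82 to 2.33 CPM ± 0.48 after 12 h of EGF (log2 fold change -2.16 ± 0.16, adjusted p = 1.57e-11). DECR1, the reductase needed for unsaturated chains, fell from 27.4 CPM ± 3.0 to 9.72 CPM ± 0.95 after 24 h of EGF (-1.49 ± 0.10, adjusted p = 1.06e-11). ACADS, the short-chain dehydrogenase, fell from 1.80 CPM ± 0.82 to 0.756 CPM ± 0.41 after 12 h of EGF (-1.25 ± 0.32, adjusted p = 0.00151).

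Peroxisomal beta-oxidation, which shortens very long and branched chains, had 14 of 15 genes tested. At 12 h 1 was higher and 10 were lower, at 24 h 2 and 9, at 48 h 2 and 6, and at 72 h 1 and 7, with medians of -0.78, -0.64, -0.04 and -0.32. AMACR, a racemase for branched chains, fell from 17.8 CPM ± 6.4 to 5.74 CPM ± 1.4 after 12 h of EGF (log2 fold change -1.62 ± 0.35, adjusted p = 0.000507). ACOX2, an oxidase for branched chains, was lower at 12 h (-1.08 ± 0.17) and higher at 48 h (1.10 ± 0.15), with adjusted p of 5.68e-06 and 1.89e-06.

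The other carnitine genes, 7 in all, split into 3 higher and 4 lower at 12 h, 1 and 2 at 24 h, 2 and 1 at 48 h, and 3 and 1 at 72 h. The medians were -0.26, 0.08, -0.0018 and 0.07, and the counts after 12 h were near the background or below it. CROT, the peroxisomal carnitine octanoyltransferase, fell from 9.08 CPM ± 2.1 to 1.59 CPM ± 0.17 after 12 h of EGF (log2 fold change -2.51 ± 0.19, adjusted p = 2.39e-11). CPT1B, the muscle form of CPT1, was higher at each time, with 5.88 CPM ± 1.7 in control cells and 13.3 CPM ± 2.2 after 72 h of EGF (1.18 ± 0.20, adjusted p = 3.18e-05). SLC22A4, a carrier of ergothioneine and carnitine, rose at 12 h (0.96 ± 0.20, adjusted p = 0.000193).

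Among other acyl-CoA synthetases, 11 of 21 were tested, with 2 higher and 1 lower at 12 h and at 24 h, 4 and 1 at 48 h, and 4 and 2 at 72 h, and medians of 0.02, 0.03, 0.28 and 0.17. SLC27A4, a fatty acid transport protein with synthetase activity, rose from 9.90 CPM ± 2.3 to 25.4 CPM ± 0.98 after 12 h of EGF (1.36 ± 0.13, adjusted p = 3.30e-09) and was lower than the control at 48 h (-0.60 ± 0.14, adjusted p = 0.00138). ACSBG1 (1.41 ± 0.48, adjusted p = 0.0131) and ACSM3 (1.30 ± 0.36, adjusted p = 0.00291) rose at 72 h from under 1 CPM. Thioesterases, which undo the synthetase reaction, had 9 of 12 genes tested, with 3 higher and 5 lower at 12 h and at 24 h, 4 and 0 at 48 h, and 4 and 3 at 72 h, and medians of -0.73, -0.36, 0.20 and -0.08. ACOT7 rose from 25.9 CPM ± 4.7 to 92.2 CPM ± 6.7 after 12 h of EGF (1.83 ± 0.10, adjusted p = 7.65e-14) and ACOT9 from 35.3 CPM ± 1.1 to 87.8 CPM ± 1.7 (1.31 ± 0.06, adjusted p = 3.40e-15). ACOT1 fell at 12 h (-1.30 ± 0.09, adjusted p = 1.36e-11), but it is nearly identical to ACOT2, so its counts are uncertain.

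Of 13 genes for fatty acid uptake and acyl-CoA binding, 6 were tested, with 1 higher and 2 lower at 12 h, 1 and 1 at 24 h and at 48 h, and 3 and 2 at 72 h, and medians of -0.34, -0.04, -0.02 and 0.21. DBI, the acyl-CoA binding protein, fell from 1223 CPM ± 147 to 620 CPM ± 41 after 24 h of EGF (log2 fold change -0.98 ± 0.08, adjusted p = 1.09e-10). ACBD4 fell at 12 h (-1.65 ± 0.26, adjusted p = 6.55e-06) and ACBD3 rose at 72 h (0.55 ± 0.11, adjusted p = 0.000132). Regulators of fatty acid oxidation had 14 of 15 genes tested, with 6 higher and 5 lower at 12 h, 5 and 4 at 24 h, 3 and 2 at 48 h, and 5 and 6 at 72 h, and medians of 0.04, -0.10, 0.0034 and -0.16. PPARD, a nuclear receptor for fatty acids, rose from 25.3 CPM ± 5.7 to 68.8 CPM ± 3.5 after 12 h of EGF (1.44 ± 0.13, adjusted p = 5.44e-10), as did PPRC1, a coactivator (1.39 ± 0.12, adjusted p = 5.64e-10). SIRT3, a mitochondrial deacetylase, fell (-1.33 ± 0.18, adjusted p = 4.69e-07).

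Of 8 target genes of the PPAR receptors outside beta-oxidation, 3 were tested, with 1 higher and 1 lower at 12 h, 2 higher at 24 h, 3 at 48 h and 2 at 72 h, and none lower after 12 h. The medians of these 3 genes were -0.12, 0.29, 0.72 and 0.59. VNN1, a pantetheinase, rose at each time, from 4.56 CPM ± 1.1 to 26.2 CPM ± 4.2 after 72 h of EGF (log2 fold change 2.52 ± 0.17, adjusted p = 7.38e-12). PLIN2, a coat protein of lipid droplets, rose at 72 h (0.52 ± 0.07, adjusted p = 8.71e-07). PDK4, a kinase that limits glucose oxidation, was lower at 12 h (-1.14 ± 0.33, adjusted p = 0.00399) and higher at 48 h (0.72 ± 0.28, adjusted p = 0.0401). Of the EMT genes measured by qPCR in the study, 4 of 5 were tested and all 4 were higher at each time, among them FN1 (3.85 ± 0.12 at 72 h, adjusted p = 1.38e-18) and SNAI1 (2.03 ± 0.21 at 12 h, adjusted p = 1.09e-08). The gene not tested was TWIST1, which never exceeded 8 counts in a library, so the rise seen by qPCR could not be compared.

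**Figure D4:**
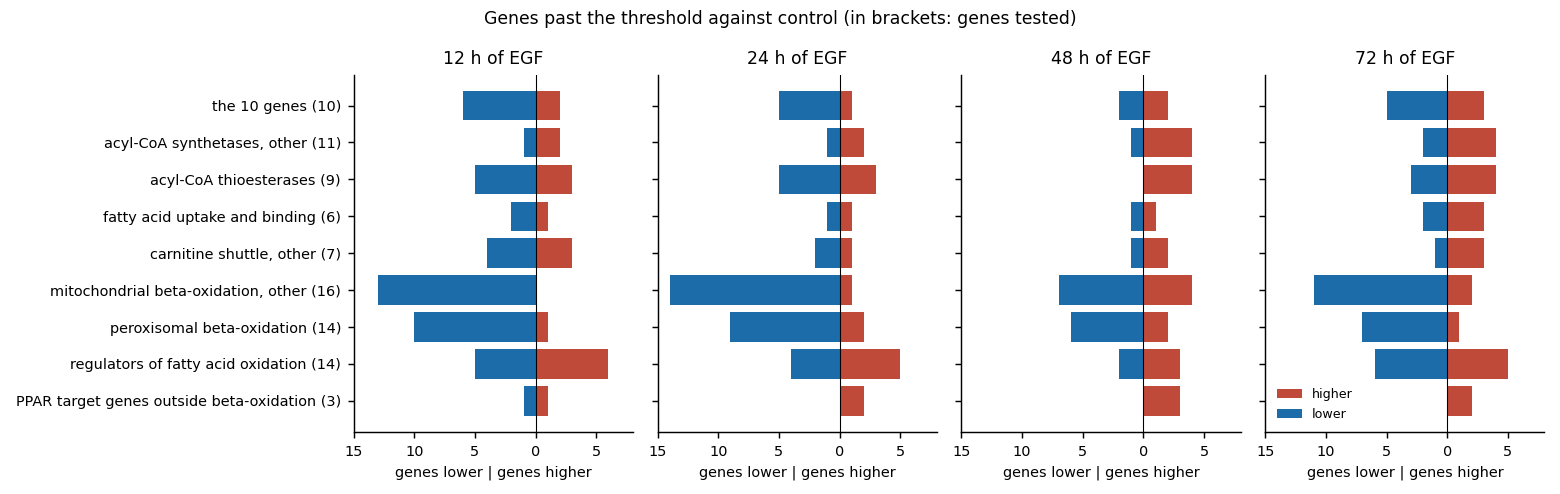
Number of genes past an adjusted p of 0.05 against control in the 10 genes and in 8 lists of related genes, in a panel for each time of EGF. Bars to the right count genes that were higher, bars to the left those that were lower, and brackets give the genes tested. The longest bars to the left are those of mitochondrial beta-oxidation, with 13 of 16 genes lower at 12 h and 14 at 24 h.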

How the data were processed

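RNA-seq of 20 MDA-MB-468 libraries (RNeasy extraction, Lexogen Corall mRNA kit, single-end reads on an Illumina NS500) was analyzed from the deposited table. The deposited counts per gene are whole numbers that are not normalized. They were treated as rounded estimated counts, since how the authors counted is not stated. Beside them, the deposited normalized values are a score on the scale of counts that the authors made in DESeq2, and the factor between them and the counts is not the same for all genes of a library. The tables also hold the authors' fold changes and p-values, which were not used. Per the labels' processing notes, hg38 and DESeq2 were used, and the aligner, counter, annotation and handling of UMIs are not given in the sources used here, so counts may hold PCR duplicates. The 10 deposited tables hold the same counts, and 1 was read.

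Counts were analyzed in edgeR 4.0.16 (R 4.3.3) with filterByExpr, TMM scaling, 1 mean per group over 20 libraries, the robust quasi-likelihood test and Benjamini-Hochberg adjustment over 16522 genes. Fold changes used a prior count of 0.125. Ratios within a library used counts plus 0.5. On simulated data for 12 h against control with 16088 genes, 150 of 198 changed genes and 13 unchanged genes were called. Alternatives were DESeq2 1.42.0 (test and size factors), library size only, mitochondrial genes left out, factors per gene (only for genes of 20 or more counts in each library), other filters, 8 libraries only, a replicate block and leaving out libraries. Positions are from GENCODE 29 (GRCh38) and promoters from RefSeq (GRCh38.p14, all 10 genes matched). The members and gene lists were chosen with earlier results of these data known. From each list, up to 3 genes are named, those with the largest called change against control and at least 1 CPM in a group. A gene that this rule picks is not reported here. At 15611961 to 25856953 counts per library, ACSL5 had 41 counts at least and the other 9 genes 281 or more. Replicates were checked for duplicates and none was found: over 30 pairs of replicates, counts varied 3.54 to 58.1 times as much as sampling alone gives.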

Additional observations from a re-analysis of the deposited data

Results flagged for a closer look

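HADHA at 48 h of EGF was 144 CPM in replicate 3, apart from the other 3 libraries at 139 to 140 CPM. It was the 1 library among 50 sets of 4 that lay this far from its group, where chance gives about 1 in 20.

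The effect of EGF differed between neighbouring times, by edgeR's quasi-likelihood test of the difference, in 18 cases. Of all genes tested, 27.9% were higher and 25.9% lower from 12 to 24 h. The shares were 25.9% and 24.3% from 24 to 48 h, and 17.9% each from 48 to 72 h. Several of the calls below were lost when single libraries were left out, that of ACSL4 from 12 to 24 h in 6 of 8 such fits. From 12 to 24 h the log2 differences were 0.61 for ACSL1, 0.24 for ACSL4, -0.24 for CPT1A, 0.92 for CPT2 and -0.36 for ACADVL, with adjusted p from 9.67e-09 to 0.0442. From 24 to 48 h they were 0.58 for ACSL1, 0.29 for ACSL3, -0.40 for ACSL4, 0.24 for CPT2, 0.35 for ACADM and 0.33 for HADHB, with adjusted p from 1.84e-08 to 0.0240. From 48 to 72 h they were -0.51 for ACSL1, -0.32 for ACSL3, 0.66 for ACSL5, -0.43 for CPT1A, -0.26 for CPT2, -0.18 for HADHA and -0.34 for HADHB, with adjusted p from 2.43e-07 to 0.0201.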

How the results depend on the processing

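Under the named alternatives, 626 of 700 log2 fold changes of the 10 genes kept their direction and their side of the threshold, 27 lost a call, 24 gained one and 23 changed sign, none of them a called value. With libraries left out in turn, 491 of 560 were kept, 39 lost a call, 10 gained one and 20 changed sign, again no called value. Among the named alternatives, the number of genes called ranged from 6 to 8 at 12 h, 5 to 7 at 24 h, 3 to 6 at 48 h and 7 to 8 at 72 h. From 12 to 24 h it fell from 5 to 3 with factors per gene and was 6, all higher, with library size only. From 24 to 48 h it ranged from 4 with factors per gene to 9 with library size only, and from 48 to 72 h from 5 to 7. With libraries left out in turn it ranged from 3 to 5 from 12 to 24 h. No consistent pairing by replicate number was seen, with correlations of same-numbered libraries from -0.37 to 0.57. For replicate 2, 5 of 10 pairs were over 0.1. In all, 4 of 20 libraries correlated best, on average, with the libraries of their own number. A replicate block gave 8, 6, 6 and 8 genes against the control and 5, 7 and 7 between times, gaining ACSL3 (adjusted p = 0.0415) and ACADVL (0.00705) at 48 h and ACADVL from 24 to 48 h (0.0131), and it changed no other call. The cause of these changes was not tested.

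Changes of sign were all in small, uncalled values. With library size only they were ACADVL (-0.12) and HADHA (-0.10) at 24 h, ACSL3 from 12 to 24 h (0.089), CPT1A from 24 to 48 h (0.14), and ACSL4 (-0.031) and ACADVL (-0.066) from 48 to 72 h. With factors per gene they were ACSL1 at 24 h (0.090) and 72 h (0.036), CPT2 at 48 h (-0.022), ACADM from 12 to 24 h (-0.22), CPT1A from 24 to 48 h (0.054), and ACSL4 (-0.15) and ACADM (0.019) from 48 to 72 h. ACSL1 at 72 h was 0.0033 with DESeq2's size factors, 0.0028 in DESeq2 and 0.036 with at least 10 counts in every library, which gave 0.021 for CPT1A from 24 to 48 h. With no filter ACSL5 was 0.0065 and HADHA 0.0099 at 12 h. With control replicate 3 and EGF 48 h replicates 3 and 4 left out, ACADVL was -0.069 at 24 h, CPT1A 0.094 from 24 to 48 h, and ACADVL -0.22 and ACADM 0.045 from 48 to 72 h. With single libraries left out, ranges crossed 0 for ACSL5 at 12 h (-0.12 to 0.079) and 48 h (-0.035 to 0.16), ACADVL at 24 h (-0.063 to 0.11), CPT2 at 48 h (-0.028 to 0.088), ACSL1 at 72 h (-0.032 to 0.013), CPT1A from 24 to 48 h (-0.060 to 0.029), and ACSL4 (-0.041 to 0.13) and ACADVL (-0.094 to 0.15) from 48 to 72 h.

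Taken from the deposited normalized values, all 13 called log2 ratios kept their direction. The smallest p that the exact test allows came to 0.0714 after adjustment in that setting, so none of the 13 ratios could pass the threshold. They were -1.25, -1.68, -0.85 and -1.16 for ACSL3 to ACSL4 at 12, 24, 48 and 72 h, -0.30 and -0.98 for ACSL1 to ACSL5 at 12 and 72 h, 1.13, -0.24 and -0.35 for CPT1A to CPT2 at 12, 48 and 72 h, 0.80 for ACADVL to ACADM at 12 h, and 0.41, 0.43 and 0.30 for HADHA to HADHB at 12, 24 and 72 h. For the ratios with an exact adjusted p of 0.0714, the lost call says nothing about their stability. The others did not reach that smallest value. Their exact adjusted p was 0.0952 for ACSL1 to ACSL5 at 72 h and for CPT1A to CPT2 at 48 and 72 h. It was 0.122 for ACADVL to ACADM and 0.476 for ACSL1 to ACSL5, both at 12 h. Except for ACSL1 to ACSL5 at 72 h, these differences were also smaller than those from the counts.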
